A study of Mus musculus with 2 samples.

Results

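The Hox genes were examined in 2 cultures of mouse melanoma cells, B16/BL6 and B16, whose total RNA had been sequenced to search for genes related to metastasis. The members are the 40 rows of the deposited tables whose symbol is a Hoxa, Hoxb, Hoxc or Hoxd letter with a position number, plus the antisense transcript Hoxa11as, out of 23284 symbols. They are 12 rows of the HoxA cluster, 10 of HoxB, 9 of HoxC and 9 of HoxD. B16/BL6 is an invasive line that was selected from B16, and both melanoma lines carry the strain label C57BL/6. Each line had 1 library, so values have no replicate error, differences were not tested, and p-values are not given. B16/BL6 was grown in RPMI and B16 in DMEM, each with 10% FBS and antibiotics, so line and medium cannot be told apart. In bulk RNA, fewer cells that make a transcript and less of it per cell cannot be told apart either.

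Hox genes encode homeodomain transcription factors that give cells their position along the head-to-tail axis and along the limbs. They lie in clusters in which low position numbers are active toward the head and high numbers toward the tail and the limb tips, an order called collinearity. Polycomb proteins keep unused parts of a cluster silent and Trithorax proteins keep used parts active, and cultured cells often keep the Hox pattern of their site of origin.

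Levels are FPKM, a fragment count divided by transcript length and by library size. A difference is the log2(FPKM + 1) of B16/BL6 less the log2(FPKM + 1) of B16, and this scale understates the change of low genes. Members that reached 1 FPKM in at least 1 library were called higher or lower from a 2-fold difference on that scale. All 7 melanocyte markers reached 1 FPKM in both lines, from 90.7 to 6160 FPKM in B16/BL6 and from 10.6 to 3789 FPKM in B16. The summed levels of 6 fibroblast markers were 0.729 and 0.532 FPKM in B16/BL6 and B16, those of 4 leukocyte markers 0.173 and 0.0382 FPKM, those of 3 endothelial markers 0 and 0.0298 FPKM, and 5 epithelial markers were listed at 0 in both. Mitf, the master factor of melanocytes, was at 90.7 FPKM in B16/BL6 and 97.1 FPKM in B16, and Pmel, which forms melanosome fibrils, at 4651 and 2166 FPKM. Actb, an abundant control, was at 1747 FPKM in B16/BL6 and 1789 FPKM in B16. Depth was not recorded, but low values moved in steps of single fragments. They put B16/BL6 at 1.10 times the depth of B16, and about 22 fragments in B16/BL6 and 20 in B16 behind a 2 kb transcript at 1 FPKM.

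Both lines used mainly the HoxA cluster. Of the 40 members, 11 reached 1 FPKM in B16/BL6 and 11 in B16, where 44.5% and 44.7% of all symbols did. In all, 13 members reached 1 FPKM in at least 1 library, 9 others were above 0 below that minimum, and 18 were listed at 0 in both libraries, as were 40.2% of all symbols. A listed 0 may reflect an estimate that failed. The 12 HoxA rows summed to 35.4 FPKM in B16/BL6 and 45.5 FPKM in B16, which was 73.5% and 78.3% of the Hox sum. The HoxD rows summed to 8.35 FPKM in B16/BL6 and 11.3 FPKM in B16, the HoxB rows to 4.17 and 1.22 FPKM, and the HoxC rows to 0.224 and 0.131 FPKM. The order of the clusters was thus the same in both libraries, and HoxB was the cluster whose sums stood farthest apart by ratio.

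**Figure D1:**
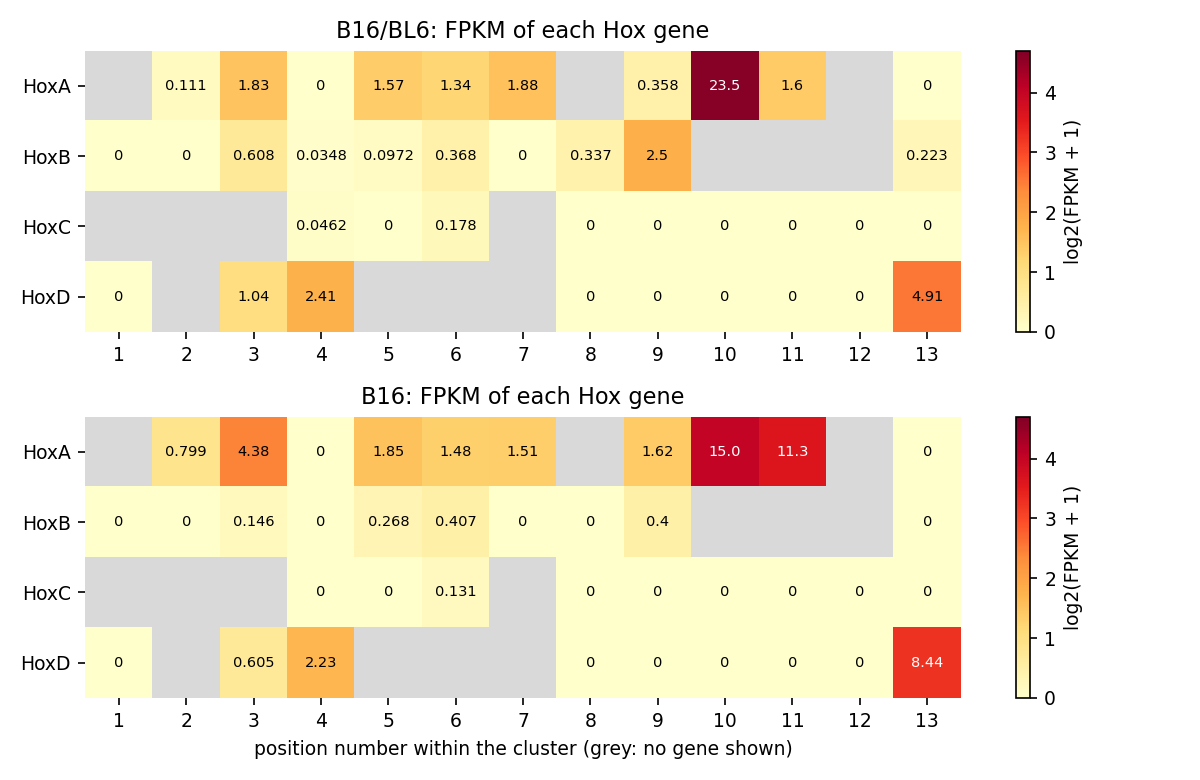
Level of the Hox genes by cluster (rows) and position number (columns) in B16/BL6 (top) and B16 (bottom), 1 library each. Colour is log2(FPKM + 1), the printed figure is FPKM, and grey marks a position with no gene shown. The strongest cell is Hoxa10 in both lines, and HoxC is at or near 0 throughout.

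By position, the summed levels were concentrated at the tail end of the numbering. Much of this was Hoxa10, which alone made up 48.8% of the Hox sum in B16/BL6 and 25.8% in B16. Members of positions 9 to 13 summed to 33.9 FPKM in B16/BL6 and 42.4 FPKM in B16, or 70.3% and 72.9% of the Hox sum. Positions 4 to 8 summed to 8.26 and 7.87 FPKM in B16/BL6 and B16, and positions 1 to 3 to 6.05 and 7.85 FPKM. Rows at 1 FPKM or more in B16/BL6 and B16 were 4 and 5 of 17 in positions 9 to 13. They were 4 and 4 of 15 in positions 4 to 8, and 3 and 2 of 8 in positions 1 to 3. Within the posterior group the listed values were uneven, with 10 of the 17 listed at 0 in both lines. Hoxa10, Hoxa11 and Hoxd13 were the 3 highest members in B16, but Hoxa13, Hoxd9, Hoxd10, Hoxd11 and Hoxd12 were listed at 0 in both lines, although Hoxd13 at their end of the HoxD cluster was not. The 13 genes of the HoxA, HoxB, HoxC and HoxD clusters listed at 0 in both lines besides these 5 were Hoxa4, Hoxb1, Hoxb2, Hoxb7, Hoxc5, Hoxc8 to Hoxc13, Hoxd1 and Hoxd8.

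Between the lines, 1 member of the 13 past the minimum was higher in B16/BL6 by 2-fold and 2 were lower. Over all 10709 genes past the minimum, 3.31% were higher and 3.16% lower. On the TPM scale the split of all genes was 369 higher and 583 lower, against 354 and 338 as deposited, and 1 Hox member was higher and 5 were lower. With a pseudocount of 0.1 FPKM, or with the chromosomes centred one by one, 4 members were lower. The median difference of the 13 members was -0.083, with 6 above 0 and 7 below, and that of all genes was 0.0053. The median of the members was -0.23 on the TPM scale, where that of all genes was -0.16, and -0.26 with each chromosome centred. The 3 members called on the deposited values were Hoxa11, Hoxa11as and Hoxb9. Exons of Hoxa11 and Hoxa11as share 800 bases, so this pair may not be separate observations. Hoxa11as and Hoxb9 reached the minimum only in the line where they were higher.

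**Figure D2:**
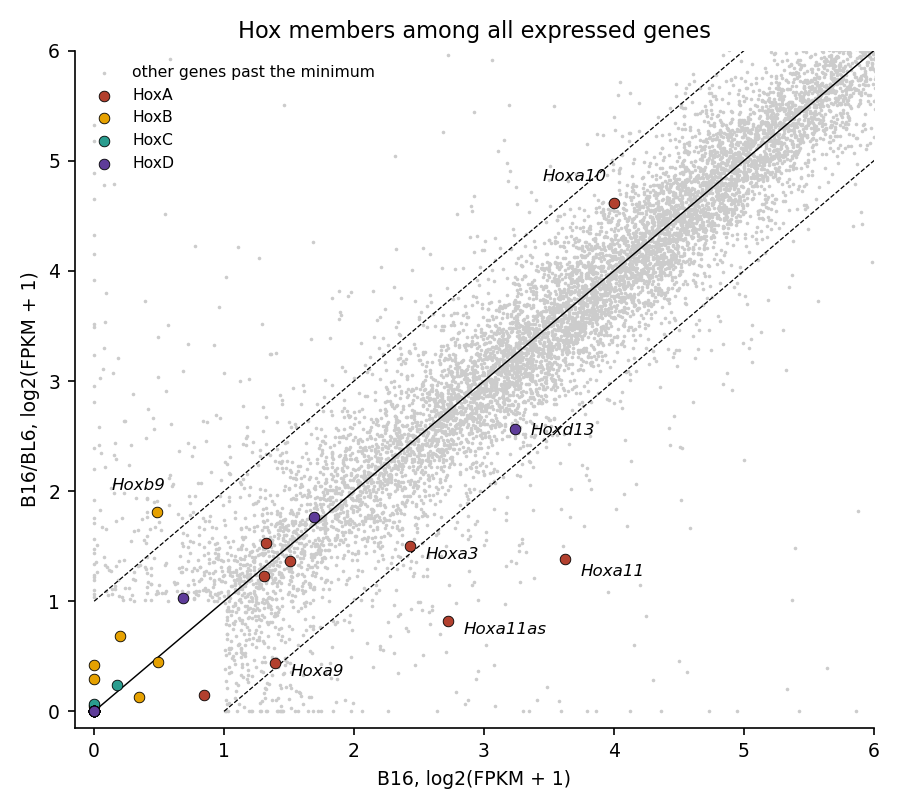
Level of the Hox members (coloured by cluster) and of the other genes past the minimum (grey) in B16/BL6 (vertical axis) against B16 (horizontal axis), both as log2(FPKM + 1), with the axes ending at 6. The solid line marks equal levels and the dashed lines a 2-fold difference. Hoxa11 and Hoxa11as lie below the lower line and Hoxb9 above the upper one.

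Hoxa11 had the largest difference of the members. It patterns the forearm and lower leg, the kidney and the uterus, and lies on chromosome 6 from 52242105 to 52245810, on the minus strand (RefSeq, GRCm38, the assembly that mm10 names). It was at 1.60 FPKM in B16/BL6 and 11.3 FPKM in B16, a log2 difference of -2.25 and a level 7.08 times higher in B16. Hoxa11as starts inside Hoxa11 and runs the other way, on the plus strand from 52245243 to 52249769. In the mouse limb bud the antisense transcript is made toward the tip, where Hoxa11 is off. Hoxa11as was at 0.766 FPKM in B16/BL6 and 5.60 FPKM in B16, a log2 difference of -1.90 and a level 7.31 times higher in B16. In these lines the sense and antisense rows were therefore both present and both lower in B16/BL6, by nearly the same ratio. Their GENCODE exons share 800 bases on opposite strands. The kit marks strand, per the labels, but whether the authors' counting used it is not given in the sources, so reads of the shared bases cannot be told apart.

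The next gene toward the low position numbers, Hoxa10, went the other way. Hoxa10 acts in the uterus, the hindlimb and blood cell precursors, and lies on chromosome 6 from 52231197 to 52240854, on the minus strand. It was at 23.5 FPKM in B16/BL6 and 14.97 FPKM in B16, a log2 difference of 0.62 that stayed under 2-fold. It alone made up 48.8% of the Hox sum in B16/BL6 and 25.8% in B16. Without Hoxa11 and Hoxa11as, a pair picked by its values, the other HoxA rows summed to 33.0 FPKM in B16/BL6 and 28.5 FPKM in B16. Hoxa10 held most of both of these sums. The 7 of these other rows past the minimum had a median difference of -0.083.

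The start regions of these neighbouring transcripts are shown because the sense and antisense rows were both lower in B16/BL6 while Hoxa10 was not. Reads of the bases that the sense and antisense rows share cannot be told apart, so these rows may not be separate observations. The windows run from 250 bases before to 50 after each annotated start (RefSeq, GRCm38.p6), 5′ to 3′ on the strand of the transcript, with CG dinucleotides in capitals. Hoxa10 has a pair of annotated starts, and both windows are given.

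Hoxa11, chr6:52245761-52246060, minus strand: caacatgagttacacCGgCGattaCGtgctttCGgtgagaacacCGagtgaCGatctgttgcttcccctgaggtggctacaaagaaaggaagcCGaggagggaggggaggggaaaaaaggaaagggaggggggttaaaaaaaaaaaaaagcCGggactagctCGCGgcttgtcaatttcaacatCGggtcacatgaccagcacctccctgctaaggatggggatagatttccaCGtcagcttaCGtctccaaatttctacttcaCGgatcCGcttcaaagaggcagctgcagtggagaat
Hoxa11as, chr6:52244993-52245292, plus strand: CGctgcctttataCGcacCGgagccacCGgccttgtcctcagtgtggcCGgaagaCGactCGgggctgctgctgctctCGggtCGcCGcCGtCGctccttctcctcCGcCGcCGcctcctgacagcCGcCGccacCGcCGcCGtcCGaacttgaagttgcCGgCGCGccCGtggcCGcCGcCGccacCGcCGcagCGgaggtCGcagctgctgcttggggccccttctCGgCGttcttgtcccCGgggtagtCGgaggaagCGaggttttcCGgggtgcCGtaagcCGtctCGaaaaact
Hoxa10, chr6:52240805-52241104, minus strand: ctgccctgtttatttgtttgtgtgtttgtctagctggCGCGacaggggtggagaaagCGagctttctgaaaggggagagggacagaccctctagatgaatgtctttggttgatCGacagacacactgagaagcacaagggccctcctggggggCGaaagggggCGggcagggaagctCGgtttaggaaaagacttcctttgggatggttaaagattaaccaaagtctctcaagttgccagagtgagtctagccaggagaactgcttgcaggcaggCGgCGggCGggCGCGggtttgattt
Hoxa10, chr6:52234890-52235189, minus strand: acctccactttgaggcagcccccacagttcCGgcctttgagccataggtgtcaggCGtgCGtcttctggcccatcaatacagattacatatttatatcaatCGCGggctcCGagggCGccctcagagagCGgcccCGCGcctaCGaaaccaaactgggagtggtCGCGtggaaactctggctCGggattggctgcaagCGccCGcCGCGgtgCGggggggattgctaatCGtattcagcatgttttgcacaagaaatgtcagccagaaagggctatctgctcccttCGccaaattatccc

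The observed count of CG over that expected from the C and G content was 1.11 in the Hoxa11as window, 0.787 in the Hoxa11 window and 0.596 and 0.853 in the Hoxa10 windows. The median of all 32851 windows of the table was 0.384. Of the 40 members, 23 had a window, 25 windows in all, with a median ratio of 0.657. The 12 windows of members past the minimum had a median of 0.820, and the 9 windows of members listed at 0 in both lines had a median of 0.574. These ranges overlapped, from 0.280 to 1.11 in the first set and from 0.257 to 0.918 in the second. The first set came from 11 genes, mostly of HoxA. The second came from 8 of the 18 genes listed at 0 in both lines, mostly of HoxD. Cluster and level therefore cannot be told apart in these windows.

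6 motifs were searched on both strands. TATAAA, the letters of the TATA box, was found once in the Hoxa11as window and once in the Hoxa10 window that starts at 52234890, and in 13.6% of all windows. CCAAT was found once in the same Hoxa10 window and in 37.4% of all windows, and GGGCGG, the GC box, in 2 places of the other Hoxa10 window and in 35.7% of all windows. TGACAG, the core bound by MEIS and PKNOX proteins, was found once in the Hoxa11as window and in 19.2% of all windows. TGATNNAT, a composite of PBX and HOX sites, and AGGTCA, a nuclear receptor half-site, were in none of the 4 windows and in 8.85% and 16.3% of all windows. The Hoxa11 window held none of the 6, which says only that these letters are not in it. A match is a description and not a binding site. Of these matches, 0 pairs of different motifs share bases. The TATAAA matches read on the strand opposite the transcript, at bases 8 to 13 (Hoxa11as) and 91 to 96 (Hoxa10). The annotated start follows base 250, so neither match lies close to it.

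Of the remaining HoxA members, Hoxa9 and Hoxa3 were lower in B16/BL6 by raw ratio but stayed just under 2-fold with the pseudocount. Hoxa9, a regulator of blood stem cells that is active in many acute leukaemias, was at 0.358 FPKM in B16/BL6 and 1.62 FPKM in B16, a log2 difference of -0.95. Its values stood in the ratio of 9 to 37 fragments once depth was allowed for. Hoxa3, which acts in the third pharyngeal arch and the thymus, was at 1.83 FPKM in B16/BL6 and 4.38 FPKM in B16, a log2 difference of -0.93. Its GENCODE exons share 297 bases with an antisense row, Hoxaas3 in RefSeq. Both genes passed 2-fold with a pseudocount of 0.1 FPKM, on the TPM scale, and when each chromosome was centred at its own median, which was 0.18 for the 543 expressed genes of chromosome 6. Hoxa2, the selector gene of the second pharyngeal arch, was at 0.111 FPKM in B16/BL6 and 0.799 FPKM in B16, under the minimum in both, in the ratio of 2 to 13 fragments.

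**Figure D3:**
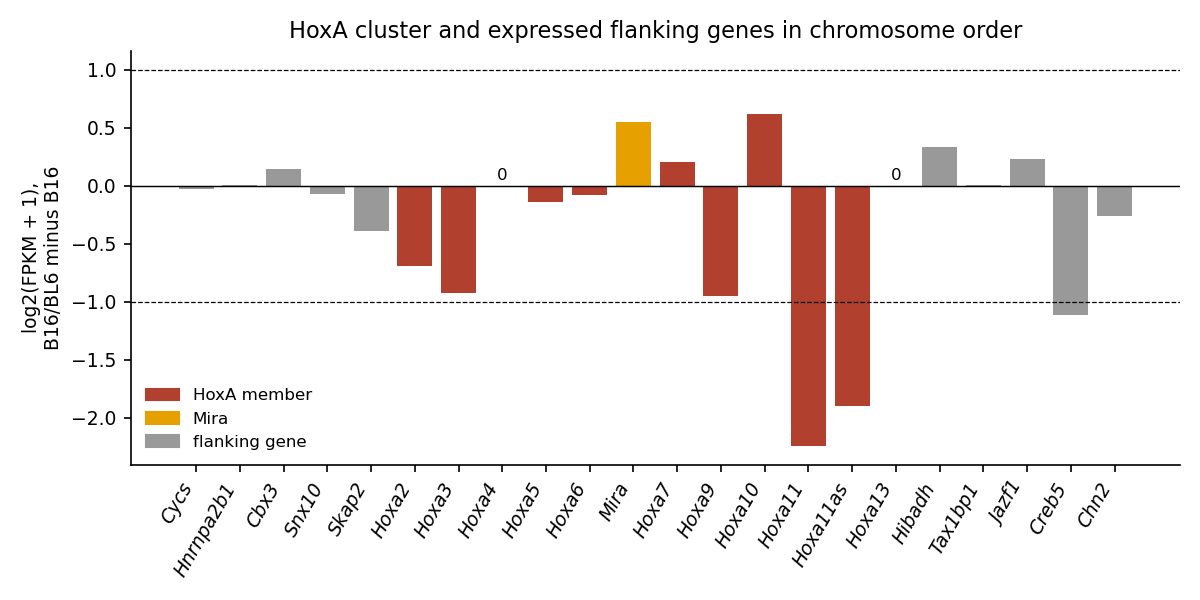
Difference in log2(FPKM + 1), B16/BL6 minus B16, for HoxA members (red), the noncoding Mira (yellow) and the 5 nearest expressed genes on each side (grey), in chromosome order and not to distance. Dashed lines mark 2-fold, and a printed 0 marks a gene listed at 0 in both lines. The deepest bars are the neighbours Hoxa11 and Hoxa11as, next to the positive bar of Hoxa10.

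The middle of HoxA was similar in both lines. Hoxa5, which acts in the lung and the neck skeleton, was at 1.57 and 1.85 FPKM in B16/BL6 and B16, in the ratio of 16 to 17. Hoxa6, a gene of the trunk skeleton, was at 1.34 FPKM in B16/BL6 and 1.48 FPKM in B16, which is an equal number of fragments in the 2 libraries. Hoxa7, another trunk gene, was at 1.88 FPKM in B16/BL6 and 1.51 FPKM in B16, and 586 of its GENCODE exon bases overlap Hoxaas3. The log2 differences of these 3 genes ran from -0.14 to 0.20. Mira, a noncoding transcript between Hoxa6 and Hoxa7, was at 4.74 FPKM in B16/BL6 and 2.92 FPKM in B16, above both of its neighbours in either line. Hoxaas3 was at 0.262 FPKM in B16/BL6 and 0.722 FPKM in B16.

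HoxB was low, and Hoxb9 was its only member to reach 1 FPKM. Hoxb9, which patterns the ribs of the thorax, lies on chromosome 11 from 96271330 to 96276595, on the plus strand. It was at 2.50 FPKM in B16/BL6 and 0.400 FPKM in B16, a ratio of 6.26 and a log2 difference of 1.32. With a pseudocount of 5 FPKM it was no longer 2-fold (0.47). The other HoxB rows stayed under 1 FPKM in both lines. Hoxb3, a hindbrain gene, was at 0.608 FPKM in B16/BL6 and 0.146 FPKM in B16, a ratio of 4.17. From the approximate depth and all its GENCODE exon bases, this was roughly 28 fragments in B16/BL6 and 6.1 in B16. Hoxb13, a gene of the tail and the prostate, was at 0.223 FPKM in B16/BL6, Hoxb8, which acts in microglia and myeloid cells, at 0.337 FPKM and Hoxb4, known from blood stem cell expansion, at 0.0348 FPKM, and all 3 were listed at 0 in B16. Hoxb5, a gene of the shoulder region and the enteric nervous system, was at 0.0972 and 0.268 FPKM in B16/BL6 and B16, in the ratio of 2 to 5 fragments. Hoxb6 was at 0.368 and 0.407 FPKM, an equal number of fragments. By the same rough estimate, each of these HoxB genes apart from Hoxb9 and Hoxb3 had at most about 9.6 fragments in either library. Hoxb8 had about 9.6 in B16/BL6 and 0 in B16, and these differences were not tested.

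In HoxD, 3 of 9 genes reached 1 FPKM and the rest were listed at 0. Hoxd13, the gene of the digits and the genital tubercle, lies on chromosome 2 from 74668225 to 74671603, on the plus strand. It was at 4.91 FPKM in B16/BL6 and 8.44 FPKM in B16, a log2 difference of -0.68, within 2-fold. Hoxd4, a gene of the neck vertebrae that responds to retinoic acid, was at 2.41 FPKM in B16/BL6 and 2.23 FPKM in B16, a log2 difference of 0.076 that was -0.051 on the TPM scale. Hoxd3, which also acts in the neck vertebrae, was at 1.04 FPKM in B16/BL6 and 0.605 FPKM in B16, in the ratio of 17 to 9 fragments or a multiple of it. The GENCODE exons of Hoxd3 and Hoxd4 share 388 bases on the same strand, so their reads can be split between them. In HoxC, Hoxc6 was at 0.178 FPKM in B16/BL6 and 0.131 FPKM in B16, in the ratio of 3 to 2 fragments, and Hoxc4 was at 0.0462 FPKM in B16/BL6 and listed at 0 in B16.

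**Figure D4:**
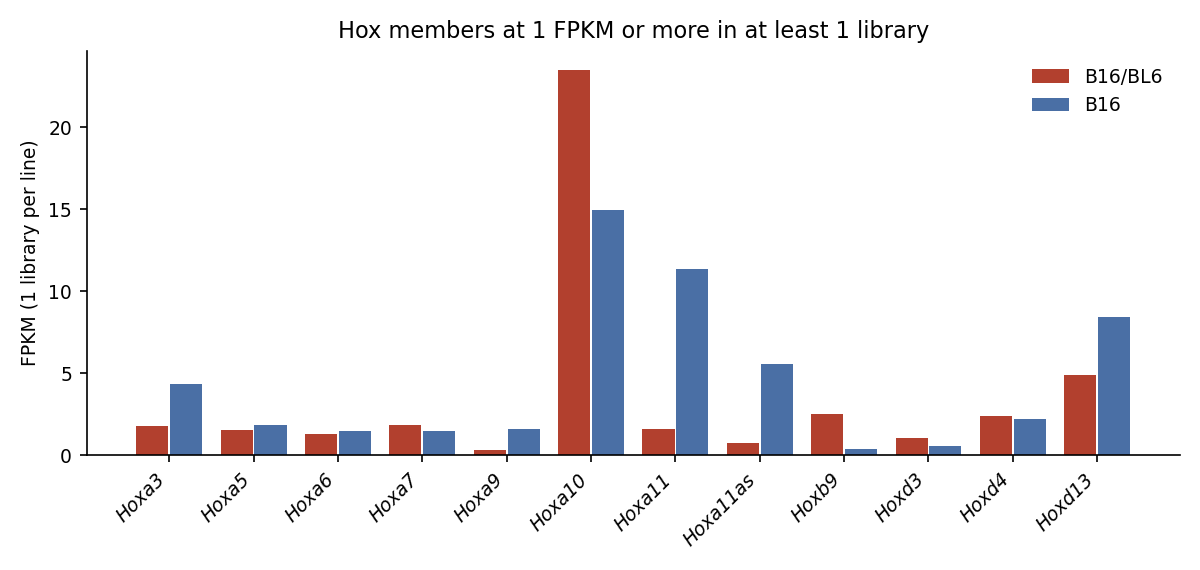
FPKM of 12 of the 13 Hox members past the minimum of 1 FPKM, B16/BL6 (red) left of B16 (blue), 1 library each and so without error bars. Hoxa10 is the tallest pair and is higher in B16/BL6, while Hoxa11, Hoxa11as, Hoxa3 and Hoxd13 are higher in B16.

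The genes that flank the clusters were mostly within 2-fold, as were 10017 of all 10709 genes past the minimum. Of 25 listed neighbours, 20 passed the minimum and all 20 were within 2-fold, with a median difference of 0.081. The farthest were Ube2z, a ubiquitin-conjugating enzyme gene near HoxB, at 39.5 FPKM in B16/BL6 and 64.2 FPKM in B16, and Skap2, an adaptor protein gene beside HoxA, at 66.4 and 87.5 FPKM. Hnrnpa1, an RNA-binding protein gene near HoxC, was at 18.8 and 14.5 FPKM in B16/BL6 and B16, and Cbx1, a heterochromatin protein gene near HoxB, at 43.7 and 55.6 FPKM. Of the 10 expressed genes taken beside HoxA, the nearest 5 on each side, 1 was past 2-fold. It was Creb5, a transcription factor gene 1026346 bases beyond the Hoxa13 end, at 0.154 FPKM in B16/BL6 and 1.5 FPKM in B16. None of the 10 taken the same way beside HoxB, HoxC or HoxD was past 2-fold. The median difference of these sets of 10 was -0.33 near HoxB, -0.012 near HoxA, 0.17 near HoxC and 0.0061 near HoxD. The lowest near HoxB was -0.82, of the transcription factor gene Nfe2l1, at 34.7 FPKM in B16/BL6 and 61.9 FPKM in B16. The long noncoding Hotair of HoxC and the microRNA rows Mir10a, Mir10b, Mir196a-1, Mir196a-2, Mir196b and Mir615 were listed at 0 in both lines. MicroRNA rows are short features, which an mRNA library measures poorly. The homeobox genes Evx1 and Evx2, which sit at the ends of HoxA and HoxD, and the Cdx genes, which activate Hox genes in the embryo, were listed at 0 too. Of the 11 genes of that list only Gbx2, a hindbrain border gene, passed the minimum, at 4.71 FPKM in B16/BL6 and 4.44 FPKM in B16.

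The TALE homeodomain proteins bind DNA together with Hox proteins, and all 11 listed genes reached 1 FPKM in at least 1 line. Of these, 1 was higher in B16/BL6 and 0 were lower, where 3.31% of all genes were higher and 3.16% lower. Their median difference was 0.25, with 9 above 0 and 2 below. The higher one was Pknox2, a partner of PBX proteins, at 9.08 FPKM in B16/BL6 and 0.646 FPKM in B16, a log2 difference of 2.61. Pbx3, a DNA-binding partner, stayed under 2-fold, at 18.4 FPKM in B16/BL6 and 9.45 FPKM in B16. Meis1, a partner of Hoxa9 in leukaemia, was at 1.93 and 1.77 FPKM in B16/BL6 and B16. Pbx4 was at 0.576 FPKM in B16/BL6 and 1.83 FPKM in B16, a log2 difference of -0.84.

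Of the Polycomb genes, 28 of 28 passed the minimum, with 0 higher, 1 lower and a median of -0.13. Over all genes past the minimum, 3.31% were higher and 3.16% lower. The lower one was Phf19, an accessory subunit of the complex that methylates histone H3 at lysine 27, at 0.534 FPKM in B16/BL6 and 3.28 FPKM in B16, a log2 difference of -1.48. It was no longer 2-fold with a pseudocount of 5 FPKM (-0.58), and with a minimum of 5 FPKM it was not counted. The catalytic subunit gene Ezh2 was at 83.6 FPKM in B16/BL6 and 69.2 FPKM in B16. The 13 measured genes of Trithorax and of the lysine 27 demethylases were all within 2-fold, with a median of -0.076. The farthest among them were the demethylase gene Kdm6b, at 7.22 and 10.0 FPKM in B16/BL6 and B16, and Men1, which encodes menin, at 16.6 and 21.3 FPKM. Of 10 other Hox regulators, 4 passed the minimum, none past 2-fold, among them the insulator protein gene Ctcf at 29.2 FPKM in B16/BL6 and 29.7 FPKM in B16.

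Retinoic acid switches on Hox genes in the embryo, and of 18 listed genes of its synthesis, breakdown and receptors 12 passed the minimum. Of these, 4 were higher in B16/BL6 and 0 lower, where 3.31% of all genes were higher and 3.16% lower. The 4 were Cyp26b1, which degrades retinoic acid (16.4 FPKM in B16/BL6 and 1.41 FPKM in B16), Aldh1a1, which makes it (2.79 FPKM and listed at 0), Crabp2, which carries it to its receptors (2.13 and 0.262 FPKM), and Dhrs3, which reduces retinal (5.17 and 1.83 FPKM). Only Cyp26b1 kept 2-fold with a pseudocount of 5 FPKM. Aldh1a1 and Crabp2 reached the minimum only in B16/BL6, where they were higher. This list was chosen with earlier results of these data known, so its share beside that of all genes is description only. The list's median was 0.34.

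Most other transcription factors of body position were under the minimum. Of 46 listed homeobox, T-box and related factors of limb, head and body regions, 13 passed the minimum, 6 were above 0 below it and 27 were listed at 0 in both lines. None was higher and 1 was lower, where 3.31% of all genes were higher and 3.16% lower. The lower one was Dlx6, a gene of the jaw and the limb edge, at 4.95 FPKM in B16/BL6 and 20.5 FPKM in B16. Among the others, Tbx4, which marks the hindlimb, was at 24.6 FPKM in B16/BL6 and 16.7 FPKM in B16, and Alx1, a gene of the facial skeleton, at 19.3 and 13 FPKM.

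**Figure D5:**
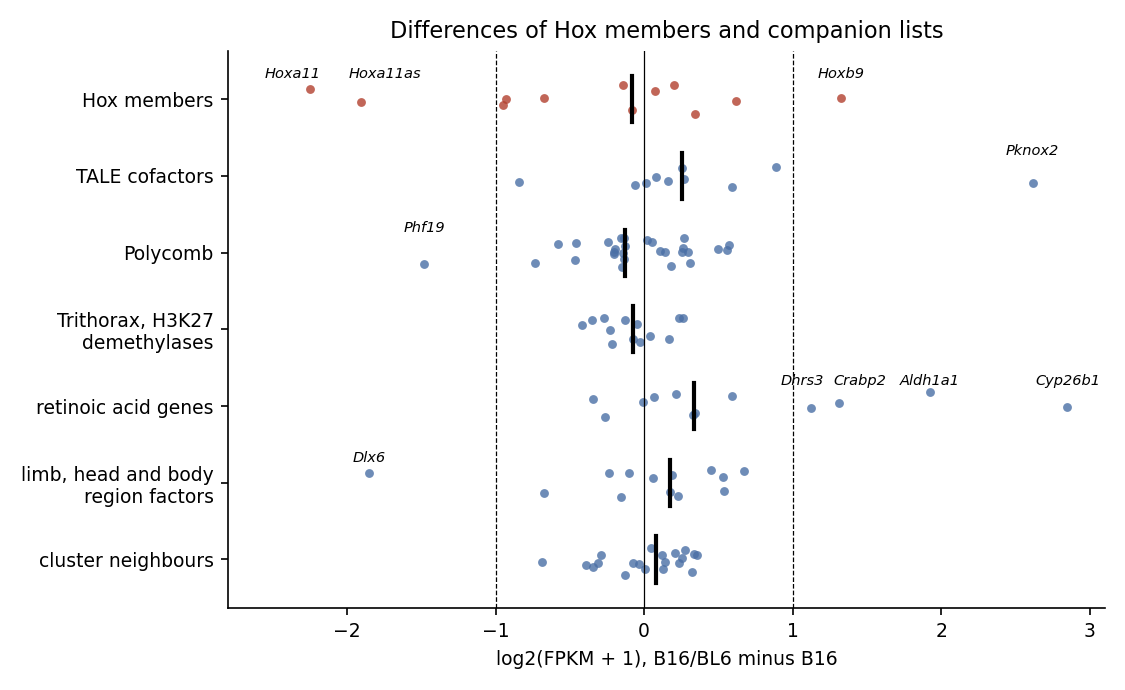
Difference in log2(FPKM + 1), B16/BL6 minus B16, of genes past the minimum (points, spread vertically for legibility) in the Hox members (red) and 6 companion lists (blue), with the median of each whole list as a black bar and 2-fold as dashed lines. Genes past 2-fold are named, and most points of every list lie within the dashed lines.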

How the data were processed

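Total RNA of 1 culture of B16/BL6 and 1 of B16 was sequenced after stranded mRNA library preparation, per the labels' protocols. Per the file headers, the authors deposited FPKM, 1 value per gene symbol. The submitters' processing notes name the build mm10, Cufflinks 2.2.1, SAMtools 0.1.19, Bowtie2 2.2.3 and TopHat2 2.0.13. Order, settings, annotation, strand setting and fragment counts were not given in the sources used here.

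With FPKM and 1 library per line, no test was run. Members and lists were chosen with earlier results of these data known. The members are named, and of each list the members past 2-fold, or else up to 4 of the farthest. Pbx3, Pbx4, Meis1, Ezh2, Tbx4, Alx1, Creb5, Nfe2l1, Mira and Hoxaas3 were named after their values were seen. Mll2, an older name of more than 1 gene, was left out, a few genes are counted but not reported here, and 9 of the 18 listed noncoding RNAs of the clusters were not analysed here.

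Relative depth was read from 379 genes whose values were under 0.1 FPKM but not 0 in either library. The commonest ratio of B16/BL6 to B16 was 0.906 (143 genes), and 78.4% of the genes stood at it times a ratio of whole numbers summing to 10 or less, within 0.005%. Fragment ratios of members are the smallest whole-number pair with a sum up to 60, and true counts may be multiples. Absolute depth, about 10800000 fragments in B16/BL6 and 9820000 in B16, is the median over 31 genes under 0.2 FPKM with a single transcript over 1500 bases. It is approximate (quartiles 6690000 and 11300000 in B16/BL6), so no intervals were computed. Approximate fragment numbers of named genes use this depth and all GENCODE exon bases of the gene, which may not be the length behind its FPKM.

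Positions came from RefSeq on GRCm38 by symbol or single-gene synonym, and exon overlaps from GENCODE M21. The scripts (Python 3.11.15, pandas 2.3.3) were tested on simulated data.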

Additional observations from a re-analysis of the deposited data

How the results depend on the processing

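On the TPM scale, which shifted the median of all genes to -0.16, 5 Hox members were at least 2-fold lower (Hoxa2, Hoxa3, Hoxa9, Hoxa11 and Hoxa11as), the Hox median was -0.23, the HoxA and HoxD sums differed by -0.52 and -0.57 against -0.35 and -0.39 as deposited, Hoxd4 reversed to -0.051, 583 of all genes were lower and 1 TALE gene was lower. With each chromosome centred, 4 Hox members were lower, the Hox median was -0.26 and 2 TALE genes were higher. With a pseudocount of 0.1 FPKM, 4 Hox members were lower, 2 TALE genes higher and 1 lower, and 511 of all genes lower, and with no pseudocount, tried after seeing the data, 4 Hox members were lower. With a pseudocount of 5 FPKM, 0 Hox members were higher and 1 was lower (Hoxa11), 0 Polycomb genes were lower, 1 retinoic acid gene was higher, and 151 of all genes were higher and 118 lower. With a minimum of 5 FPKM, 4 Hox members passed (1 at that level in B16/BL6 and 4 in B16), 0 were higher, their median was -1.29, 0 Polycomb genes were lower, 2 retinoic acid genes were higher and 212 of all genes lower. With no minimum, 22 Hox members were above 0, all of them so in B16/BL6 and 18 in B16, with a median of 0.054. Leaving out Hoxa11as, also tried after seeing the data, gave a median of -0.0037. Hoxa11 was at least 2-fold lower under every setting named here and under upper-quartile scaling, with log2 differences between -1.31 and -2.75 and, with no pseudocount, a ratio of B16/BL6 to B16 of 0.141, and Hoxa11as under all but the pseudocount of 5 FPKM (-0.88). The cause of these shifts was not tested. No paired analysis was possible because each line had 1 library. Depth limits most what can be read from genes that rest on few fragments.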
